A study of Mus musculus with 4 samples.

Results

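The nuclear factor I (NFI) family of transcription factors has 4 genes in the mouse, Nfia, Nfib, Nfic and Nfix, and all 4 were followed by name through the cells of the main olfactory epithelium, out of 55511 genes in the count matrices. The epithelium was taken from 4 male C57BL/6 mice aged 8 weeks, for which no treatment and no engineered allele is named, and which formed 1 group. Live nucleated cells were sorted with a pair of dyes and profiled by droplet-based 3′ RNA sequencing, with 1 library per mouse, so the mouse was the replicate (n = 4). Each transcript caught in a droplet carries a unique molecular identifier (UMI), and a level below is the number of UMIs of a gene per 10000 UMIs of a group of cells, computed in each mouse and averaged over mice. The members gave 62776 UMIs in all, namely 29265 for Nfix, 19120 for Nfib, 8019 for Nfia and 6372 for Nfic.

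NFI proteins bind DNA as dimers, and each subunit reads 1 arm of a palindrome, of which one arm alone also serves as a weaker site. They are known from the developing brain, where they act in the passage from dividing progenitors to glia and neurons, and from stem cells of several epithelia. In the olfactory epithelium the neurons arise from horizontal basal cells (HBC), a reserve stem cell, and globose basal cells (GBC), the dividing precursor, through immediate neuronal precursors (INP) and immature olfactory sensory neurons (iOSN1, then iOSN2) to mature olfactory sensory neurons (mOSN). Each mature neuron expresses 1 odorant receptor gene, and the place of a neuron between the dorsal and the ventral part of the epithelium limits which receptors it may express. Nqo1, a quinone reductase, marks dorsal neurons, and Nfix is used as a mark of ventral ones.

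Nfib lies on chromosome 4 (82290173 to 82705750, minus strand, GRCm38), Nfia on the same chromosome (97772734 to 98118874, plus strand), Nfix on chromosome 8 (84699876 to 84800344, minus strand) and Nfic on chromosome 10 (81396186 to 81455635, minus strand). All 4 encode proteins. Genes on the opposite strand overlap each of them, the most counted being Lyl1 inside the Nfix locus with 942 UMIs, and the library chemistry keeps the strand.

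The libraries held 23157467 to 32382702 UMIs and 21809 barcodes in all, of which the authors retained 15859 cells in 10 types. Of the barcodes, 54 occurred in more than 1 library. The defining markers of mature neurons (Omp, Adcy3, Cnga2, Gng13 and Stoml3) summed to 258 to 265 UMIs per 10000 in mOSN of the 4 mice, and those of horizontal basal cells (Krt5, Krt14 and Trp63) to 37.1 to 52.1 in HBC1. In HBC2 the horizontal basal list summed to 17.5, less than the sustentacular list (Cyp2g1, Cyp1a2 and Ermn, 30.8). The markers of immediate precursors (Neurog1, Neurod1 and Tex15) summed to 20.7 in INP, 6.27 in GBC and 3.35 in iOSN1. Mv1, 1 of the microvillar types, had more of the gland list (Muc5b, Sox9 and Bpifb9b, 10.3) than of the microvillar list (9.03), and the gland sum was Sox9 alone, with Muc5b and Bpifb9b at 0 UMIs. The mature neuron markers summed to 33.8 in Mv1.

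Along the neuronal lineage, the members followed different courses. Nfia was highest in INP and low in mature neurons, Nfib was high in both precursor types and lower in neurons, Nfic was lowest in INP, and Nfix had its highest mean in mature neurons. The types and clusters were made by the authors from the expression of the same cells, so these levels are given as a description with no test, and groups are said to lie apart where the ranges of the 4 mice do not overlap.

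Nfia stood at 1.61, 1.57, 2.45 and 1.51 UMIs per 10000 in GBC of mice 1 to 4. In INP it was at 4.86, 3.44, 5.12 and 4.87. In mOSN it was at 0.284, 0.368, 0.335 and 0.340. The INP level lay above that of every other type, and no mouse of another type reached the lowest INP value. From INP to mOSN the log2 ratio within a mouse was −3.77 ± 0.38 (SD, n = 4), with separate steps down at iOSN1 (1.44 ± 0.25) and at iOSN2 (0.343 ± 0.107). The levels of iOSN2 and mOSN overlapped.

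Within iOSN1, cells with and without a receptor class had different levels of Nfia. In the 207 iOSN1 cells to which no receptor class could be given, Nfia was at 2.97 ± 0.42 UMIs per 10000, and in the 659 with a receptor class at 1.08 ± 0.32 (SD, n = 4), with ranges over mice that did not overlap. Nfib was at 4.25 ± 0.55 and 2.01 ± 0.18 in the same cells, also apart. Nfix had the other order, at 1.33 ± 0.38 without and 2.09 ± 0.24 with a receptor class, again apart. Stage markers differed between the same cells. The INP markers Neurog1, Neurod1 and Tex15 summed to 9.69 ± 2.02 UMIs per 10000 in cells without and 1.92 ± 0.75 in cells with a receptor class, and the mature markers to 18.4 ± 2.0 and 40.7 ± 2.3 (SD, n = 4), neither overlapping over mice, and their part in the result was not tested. Among INP, cells with a UMI of Neurog1, a proneural factor of early precursors, had 4.66 ± 1.20 for Nfia and those without it 4.36 ± 1.15, which overlapped.

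Nfib was at 4.20, 2.98, 4.996 and 3.21 UMIs per 10000 in GBC and at 3.78, 5.07, 4.10 and 3.60 in INP, which overlapped. It was at 2.41 ± 0.20 in iOSN1 and 1.25 ± 0.16 in iOSN2, and each step lay apart from the one before. In mOSN it was at 1.04, 1.24, 1.35 and 1.35, no different from iOSN2 beyond the spread. Unlike Nfia, Nfib thus kept a level over 1 in mature neurons of every mouse. Its highest means were 5.60 ± 1.13 in HBC1, 4.94 ± 1.09 in HBC2 and 4.85 ± 0.42 in sustentacular cells (Sus), and these 3 overlapped with each other, whereas the lowest mean was that of Mv1 (0.901).

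Nfic, the member known from tooth root and bone, went through its minimum in INP. It was at 0.556, 0.456, 0.923 and 0.234 UMIs per 10000 in GBC. In INP it was at 0.0763, 0.0545, 0.0864 and 0.0546, from 16 UMIs in 284 cells, and its mean was 0.0679, or 0.0189 with cells thinned to 5000 UMIs. All 4 mice were lower in INP than in any other type. The level was 0.241 ± 0.031 in iOSN1, 0.396 ± 0.025 in iOSN2 and 0.444 ± 0.060 in mOSN, and the step from INP to iOSN1 was 1.85 ± 0.42 on the log2 scale. HBC1 had the highest level, 2.49 ± 0.54, which lay above all other types, followed by Mv2 (1.498 ± 0.080) and HBC2 (1.29 ± 0.17).

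Nfix was at 0.886, 0.953, 1.43 and 0.920 UMIs per 10000 in GBC. In iOSN1 it was at 1.72, 2.09, 1.75 and 2.21. In mOSN it was at 3.24, 4.33, 3.81 and 4.24. The INP level (1.38 ± 0.20) overlapped with GBC and lay below iOSN1, and each of the later steps was upward in 4 of 4 mice, although the ranges of iOSN1 and iOSN2 and of iOSN2 and mOSN overlapped. From INP to mOSN the log2 ratio was 1.502 ± 0.059. Among the other types, HBC1 was at 3.51 ± 0.78, which overlapped with mOSN.

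**Figure D1:**
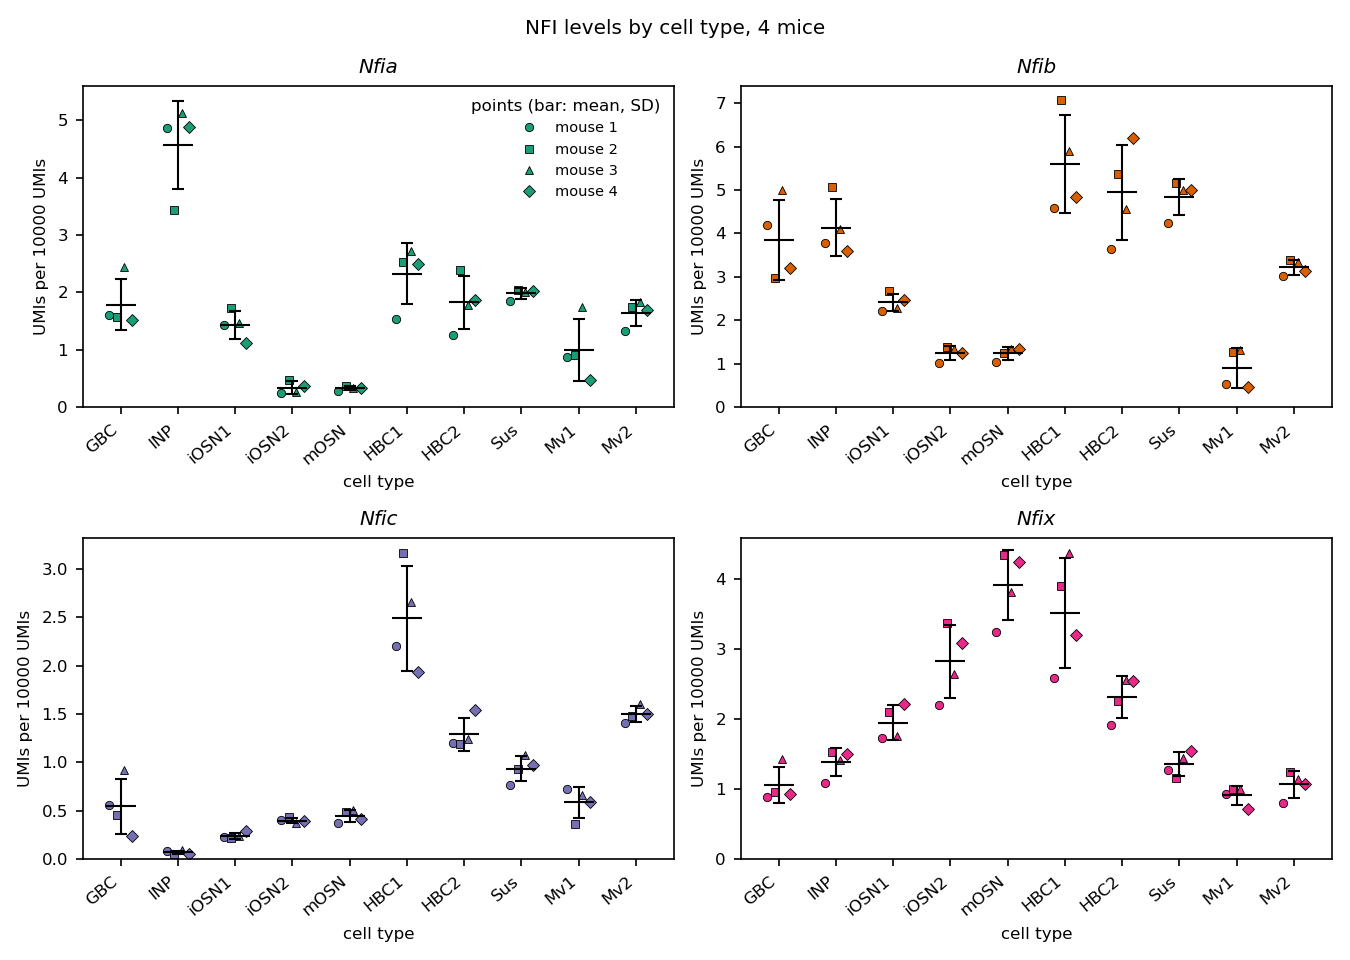
Level of each NFI member in the 10 cell types (vertical axis, UMIs per 10000 UMIs of the type; points are the 4 mice, bars the mean and SD). Nfia has its peak in INP (4.57), Nfic its minimum there (0.0679), and Nfix has its highest mean in mOSN (3.90).

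Cells of another origin were in the same libraries. In the immune cell clusters that the authors removed, Nfix was at 0.646 ± 0.153, Nfic at 0.591 ± 0.029, Nfib at 0.239 ± 0.043 and Nfia at 0.179 ± 0.031 UMIs per 10000 (SD, n = 4). The Nfic level of mOSN was below that of immune cells in every mouse, while the Nfib level of mOSN was over it in every mouse.

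The genes most like each member over the 10 types were listed by Pearson's r of log2(level + 0.1), among 3692 genes with a mean level of 0.5 or more. These were Bckdha (r = 0.96), Midn (0.95) and Rnf187 (0.91) for Nfia. For Nfib they were Fmnl2 (0.91), Impad1 (0.90) and Amotl1 (0.90). Il6st (0.95), Myh9 (0.94) and Wnk1 (0.94) were most like Nfic, and Ormdl3 (0.91), Nqo1 (0.90) and Vsnl1 (0.89), a calcium sensor of neurons, were most like Nfix. These values rest on 10 points that share the 4 libraries. Nqo1 is among them although Nfix and Nqo1 mark different neurons, and each type pools dorsal and ventral cells.

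Mature neurons were then split by the 10 clusters that the authors made without receptor genes and named with Nqo1 and Nfix, among other genes. Nfix was at 4.73 to 5.52 UMIs per 10000 in the means of the 5 ventral clusters and at 0.238 to 0.463 in those of the 5 dorsal ones, which is how the clusters were named and no result. Nfib, which did not serve to name them, had the same split, with means of 1.16 to 1.84 in the ventral clusters and of 0.0669 to 0.0986 in the dorsal clusters. In no mouse and no dorsal cluster did Nfib exceed 0.214, and in no ventral cluster was it under 0.734.

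Nfia was less evenly spread over the ventral clusters. It was at 0.417 to 0.518 UMIs per 10000 over mice in the main ventral cluster, above the Cd36+ ventral cluster (0.229 to 0.374), the Cd55+ one (0.245 to 0.386) and the Dlg2+ one (0.214 to 0.329). The Calb2+ ventral cluster spanned 0.311 to 1.00 and overlapped with all of these. Dorsal clusters had means of 0.0283 to 0.111. Nfic was at 0.368 to 0.517 in the means of all 10 clusters, and each neighbour in that order overlapped with the next.

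**Figure D2:**
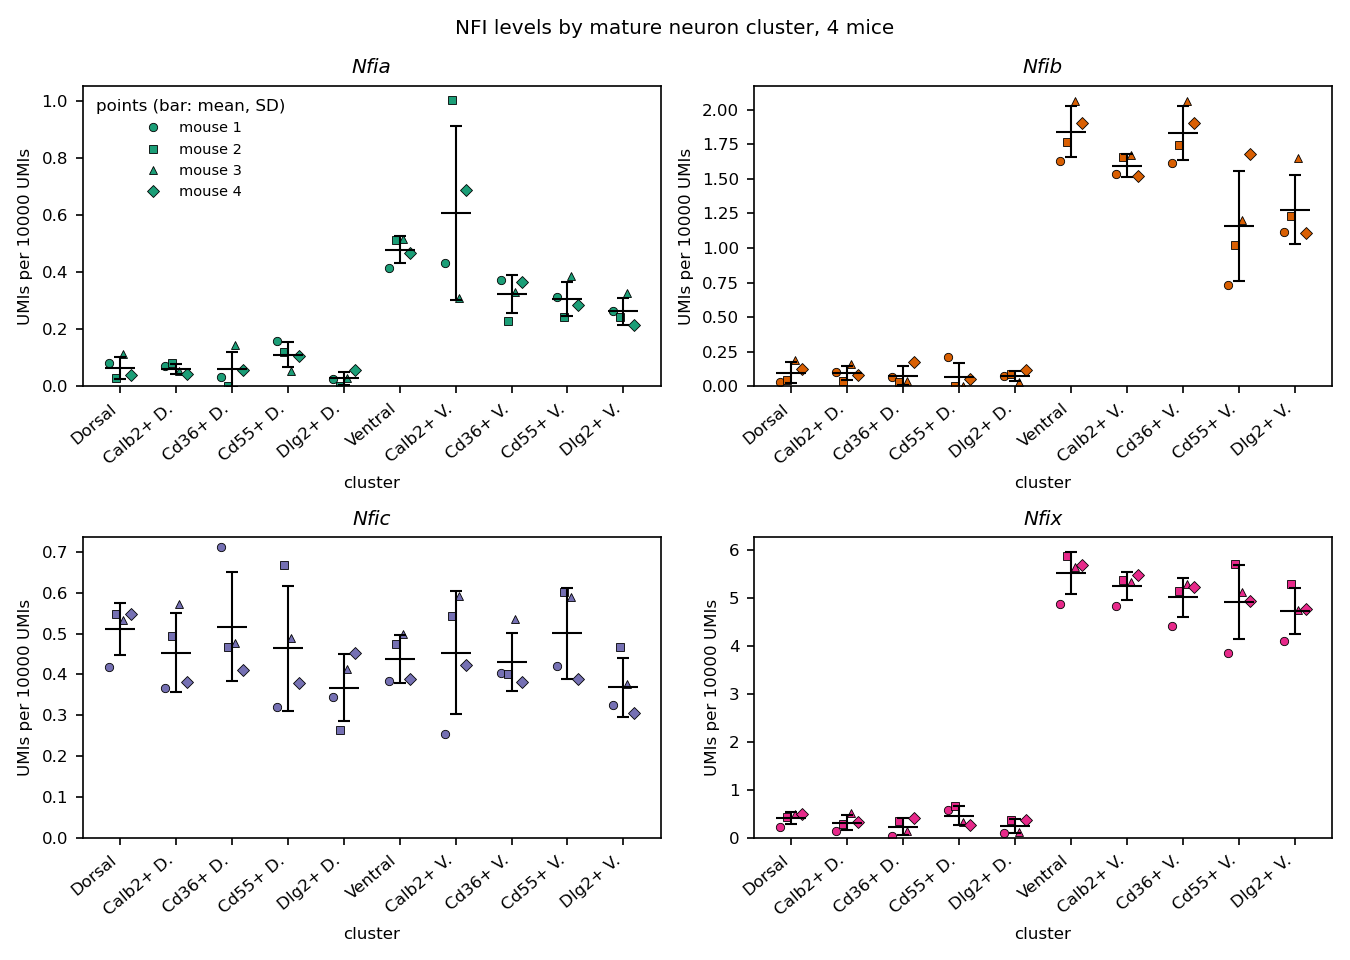
Level of each NFI member in the 10 clusters of mature neurons (vertical axis, UMIs per 10000 UMIs; points are the 4 mice, bars the mean and SD; 5 dorsal clusters at left, 5 ventral ones at right). Nfix, Nfib and Nfia are higher in each of the 5 ventral clusters than in any dorsal one (Nfib 0.0669 to 0.0986 in dorsal means), and Nfic has means of 0.368 to 0.517 throughout.

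The receptor gives a way to group neurons that does not use the NFI genes. The class I receptor genes, 156 in the annotation, lie together on chromosome 7 (102476579 to 105369355), and the remaining Olfr genes are of class II. UMI sums per mouse and class were compared with edgeR's quasi-likelihood test, with the mouse as block and p-values adjusted over all genes tested. The SE printed with a log2 change is the size of that change divided by the square root of the test's F. It was not estimated apart from the test and can lie below counting error. Of the mOSN, 1071 had a class I and 8641 a class II receptor. Nfix, Nfib and Nfia were all lower in class I neurons and Nfic was not called.

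In mOSN of mice 1 to 4, the class I neurons had Nfix at 0.110, 0.374, 0.137 and 0.223 UMIs per 10000, and the class II neurons had 3.77, 4.82, 4.38 and 4.61. The groups did not overlap, and class I against class II came to −4.44 on the log2 scale (SE 0.084, edgeR adjusted p 4.47e-140), a 21.7-fold difference. Nfib was at 0.0450, 0.0821, 0.0893 and 0.101 against 1.20, 1.37, 1.54 and 1.47, 17.7-fold lower at −4.15 on the log2 scale (SE 0.13, edgeR adjusted p 1.38e-89). Nfia was at 0.0400, 0.0274, 0.0756 and 0.0607 against 0.324, 0.407, 0.377 and 0.368, or 6.85-fold lower at −2.78 on the log2 scale (SE 0.20, edgeR adjusted p 4.82e-32). For these 3 members the highest class I mouse lay below the lowest class II mouse. Class I neurons were not alike in Nfix, since the 27 with receptor Olfr686 had 4.36 with the mice summed (below). For Nfic the class I level was 0.504 ± 0.095 and the class II level 0.441 ± 0.058 (SD, n = 4), which differed by 0.22 on the log2 scale (SE 0.098, edgeR p 0.0247 unadjusted and 0.105 adjusted). It was higher in class I in 3 of 4 mice.

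These calls stand in a comparison where much differed. Of 11835 genes, 2201 or 18.6% were called, 8.89% lower and 9.71% higher in class I neurons. Without the mouse as block 1080 genes were called, and the call of each member was the same. The class also moved with the maturity markers, since Omp, which encodes a protein of mature neurons, had 62.6 ± 3.1 UMIs per 10000 with class I receptors and 73.5 ± 3.5 with class II receptors (SD, n = 4), and the 5 mature markers summed to 217 to 227 against 266 to 274. Their part in the result was not tested. The sustentacular list summed to 0.0561 and 0.0558 in class I and class II, and the median depth per neuron differed most in mouse 2, at 4278 UMIs in class I and 4335 in class II.

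The same comparison was made in immature neurons, where a class was given to cells whose highest receptor had 2 or more UMIs and in which 80% or more of the Olfr UMIs belonged to 1 class. In iOSN1, 56 cells were of class I and 603 of class II. The class I cells had Nfix at 0.380, 0.395, 0.530 and 0.753 UMIs per 10000 and the class II cells at 2.08, 2.23, 2.10 and 2.49, a difference of −2.14 on the log2 scale (SE 0.26, edgeR adjusted p 6.69e-11). Nfib was at 0.696, 0, 0.235 and 1.21 against 2.01, 2.37, 2.14 and 2.06, which is −2.03 on the log2 scale (SE 0.27, edgeR adjusted p 3.03e-09). Without the 5% deepest cells of each mouse and stage the change of Nfib was −3.29. No class I mouse reached a class II mouse for either gene. Nfia was at 0.316, 0, 0 and 0.301 against 0.942, 1.52, 1.42 and 0.802, from 7 UMIs in class I, which is −2.88 on the log2 scale (SE 0.42, edgeR adjusted p 8.54e-08). Its log2 change was −4.18 without mouse 1 and −2.02 without mouse 3 (edgeR adjusted p 0.0295 for the latter). With DESeq2 the adjusted p of Nfia was 0.353 at a log2 change of −3.29, and 42 genes in place of 126 were called.

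So 3 of the 4 members were called at this stage, where 1.69% of 7459 genes were, 0.804% lower and 0.885% higher in class I cells. Nfic had 0.178 ± 0.049 and 0.275 ± 0.054 in class I and class II cells (SD, n = 4), −0.62 on the log2 scale (SE 0.54, edgeR adjusted p 0.826). The iOSN markers Gap43, Gng8 and Dpysl3 summed to 56.9 and 58.5 in class I and class II iOSN1, and the INP markers to 0.997 and 2.01, with ranges of 0 to 2.78 and 0.885 to 2.70 over mice, so the INP sums overlapped. Their part in the Nfia difference was not tested. Leaving out mouse 3 gave 38 calls and leaving out mouse 1 gave 65, and the 3 members were called without each mouse in turn.

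In iOSN2, with 88 cells of class I and 875 of class II, Nfix was at 0.207, 0, 0.515 and 0.678 against 2.53, 3.57, 2.91 and 3.402 UMIs per 10000. The log2 change was −2.99 (SE 0.24, edgeR adjusted p 7.58e-11). Nfib was at 0.0345, 0, 0.343 and 0.0848 against 1.18, 1.44, 1.44 and 1.34, which is −3.36 on the log2 scale (SE 0.36, edgeR adjusted p 7.51e-08), and it was −4.84 without mouse 3. Again no class I mouse reached a class II mouse for either gene. Nfia was at 0.128 ± 0.119 and 0.372 ± 0.097 (SD, n = 4), from 6 UMIs in class I, and did not pass the test (log2 change −1.81, SE 0.51, edgeR adjusted p 0.0682), while with no filter on low counts its adjusted p was 0.0140. Of 8004 genes 1.55% were called, 0.625% lower and 0.925% higher in class I cells, and 45 in place of 124 genes were called without mouse 1. Nfic was at 0.417 ± 0.033 against 0.387 ± 0.024 (SD, n = 4) and was not called (edgeR adjusted p 0.929). The mature markers summed to 136 to 163 in class I and 191 to 208 in class II cells of this stage, and their part in the result was not tested.

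Whether the class difference was the same before and after maturity was asked of the interaction of class and stage. For Nfix the class difference was smaller in iOSN2 than in mOSN by 1.38 on the log2 scale (SE 0.43, edgeR p 0.00191 unadjusted and 0.162 adjusted), so it did not pass the test, and without mouse 2 it did (1.95, edgeR adjusted p 0.00489). For Nfib the interaction was 0.73 (SE 0.60), for Nfia 0.84 (SE 0.72) and for Nfic −0.08 (SE 0.30), with edgeR adjusted p of 0.807, 0.815 and 0.974. Without mouse 3 that of Nfib turned to −0.72 and that of Nfia was 1.48, and without mouse 2 that of Nfia was 0.37, none of them called. Of 10083 genes 52 or 0.516% were called, and 15 without the mouse as block.

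**Figure D3:**
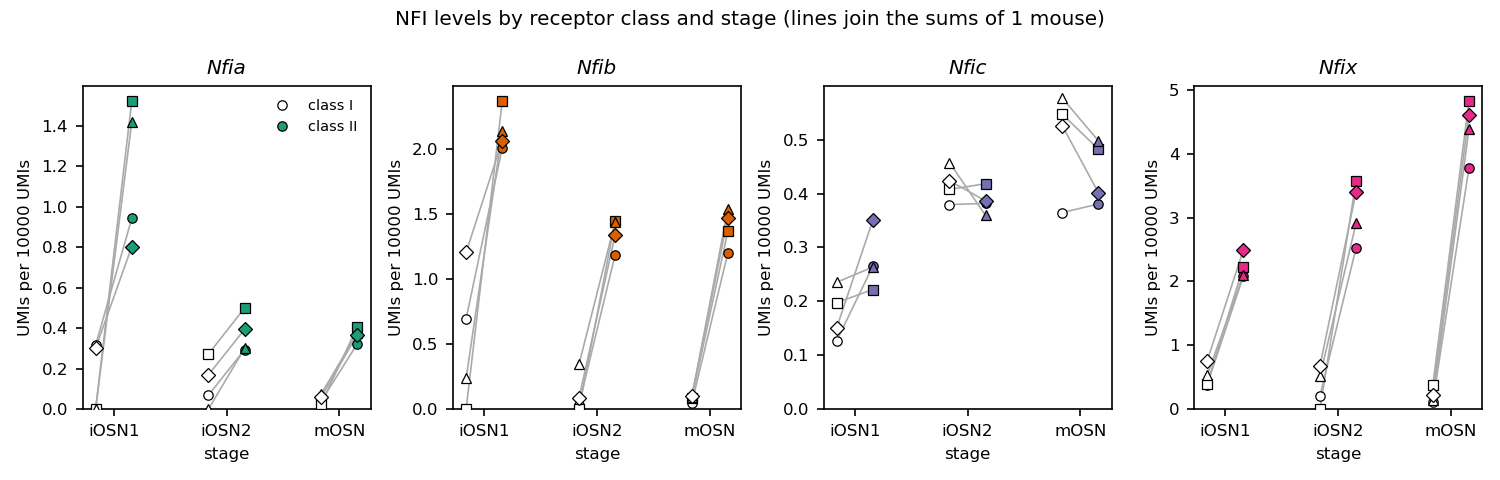
Level of each NFI member by receptor class in iOSN1, iOSN2 and mOSN (vertical axis, UMIs per 10000 UMIs; white symbols class I, filled symbols class II, lines join the sums of 1 mouse). In all 4 mice and 3 stages Nfix is lower in class I; in mOSN its 4 class I values are 0.110 to 0.374 and its class II values 3.77 to 4.82.

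Receptor class and position overlap, so the levels were also set out by class within the dorsal and ventral clusters, as a description. In dorsal clusters, Nfix was at 0.0488, 0.148, 0.0607 and 0.0881 UMIs per 10000 in 967 class I neurons and at 0.297, 0.566, 0.616 and 0.600 in 1722 class II neurons. The ranges were apart. Nqo1 was at 27.4 ± 4.8 and 23.5 ± 3.8 (SD, n = 4) in the same neurons, higher in class I in every mouse. Nfib was at 0.0434 ± 0.0234 against 0.118 ± 0.056, and Nfia at 0.0409 ± 0.0150 against 0.0744 ± 0.0322, with overlapping ranges for both genes. Within a mouse, Nfib was lower in class I in every mouse. Nfia was lower in all but mouse 4 (0.0550 against 0.0465). The 83 class I neurons in ventral clusters had 2.16 ± 1.18 for Nfix against 5.36 ± 0.45 in 6689 class II neurons there. Of these 83, 24 expressed Olfr686, whose neurons had Nfix at 4.36 with the mice summed. The class I level there thus rests in large part on 1 receptor, and all 83 gave 65 UMIs of Nfix. Their Nqo1 was at 4.73 ± 3.01 against 0.522 ± 0.126.

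A list of genes linked to the dorsal and ventral zones of the epithelium (zone genes) gave a frame for these values. Of 8 zone genes, all were called between the classes in mOSN, 5 higher and 3 lower in class I, where 18.6% of all genes were called. The lower ones were the adhesion molecule Ncam2 (log2 change −3.53, edgeR adjusted p 2.06e-74) and the axon guidance receptors Nrp2 (−2.56) and Nrp1 (−1.70), and the higher ones were Nqo1 (2.43), Acsm4 (2.22), Robo2 (1.15), Sema3f (0.86) and Plxna1 (0.21). In iOSN1 5 of 8 were called, namely Nqo1 (1.79), Acsm4 (3.13), Robo2 (1.01), Ncam2 (−2.28) and Nrp2 (−2.21), and in iOSN2 4 of 7, where 1.69% and 1.55% of all genes were. Nrp2 was the 1 of 8 zone genes with an interaction call (1.76, edgeR adjusted p 0.00297; 0.516% of all genes), and its class difference was smaller in iOSN2 (−0.85) than in mOSN.

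Of 12 regulators of receptor choice, 3 were called in mOSN, Ebf4 (0.23), Ebf3 (−0.15) and Ldb1 (−0.45), where 18.6% of all genes were. In the immature stages, with 1.55% and 1.69% of all genes called, 0 of 11 tested in iOSN2 and 0 of 12 in iOSN1 were called by edgeR, with unadjusted p under 0.05 for 2 in iOSN2, Kdm1a (0.0106) and Emx2 (0.0232), and for Ldb1 (0.00932) in iOSN1. Their median log2 change in mOSN was 0.03 against −0.00 over all genes. Lhx2, the LIM homeodomain factor of receptor enhancers, was at 0.01 (SE 0.037). Of 7 stem and precursor regulators, only Hes6 passed the filter on low counts, and it was called in mOSN (0.52, edgeR adjusted p 0.00307).

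Neurons were then grouped by the receptor they express, and the 134 such populations of 20 or more neurons held 4143 of the 9791 neurons with a receptor identity. Of these, 15 had a class I and 119 a class II receptor. The level of a population was taken from the UMIs of all 4 mice together, 88202 to 548192 UMIs per population, and the upper limit that a count of 0 allows (3 UMIs) was then 0.0547 to 0.340 UMIs per 10000, for counting error only. Thresholds on these levels were chosen after the values were seen and are used only to describe.

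The populations fell into separate ranges of Nfix. In 33 populations it was under 1 UMI per 10000, in 98 it was 3 or more, and 3 lay between. Its median was 5.28 and its quartiles 1.89 and 6.09. The 3 highest were Olfr117 (8.93), Olfr2 (8.40) and Olfr15 (7.71), and 7 populations were at 0, among them Olfr549, Olfr553 and Olfr591, all of class I. In Olfr15 neurons Nfix was at 7.01, 12.2, 7.37 and 7.77 in mice 1 to 4, in Olfr2 at 7.29, 9.10, 10.9 and 5.09, and in Olfr117, with no neuron in mouse 3, at 9.36, 11.2 and 6.11. The 3 populations overlapped over mice, and by the mean over mice Olfr15 (8.58) was above Olfr2 (8.10).

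Nfib and Nfia varied over the populations, also where Nfix was high, and the part of counting error in this was not tested. Nfib was under 1 UMI per 10000 in 48 populations, of which 41 had Nqo1 at 1 or more. It reached 3.60 in Olfr726, 3.56 in Olfr1228 and 3.13 in Olfr1183. It was at 0 in 14 populations, 7 of the 15 of class I and 7 of the 119 of class II. Olfr1039, Olfr411 and Olfr418, with class II receptors, were among those at 0. In Olfr726 neurons Nfib was at 1.64, 0.851, 5.76 and 3.72 in mice 1 to 4, so 1 of the mice was below the level of mOSN as a whole. By the mean over mice Olfr726 was at 2.99 and not among the 3 highest, which were Olfr1228 (3.57), Olfr720 (3.37) and Olfr1183 (3.31). Nfia reached 2.11 in Olfr1183, 1.93 in Olfr281 and 1.90 in Olfr1228, against a median of 0.241. It was at 0 in 21 populations, of which 17 had Nqo1 at 1 or more. In Olfr1183 neurons Nfia was at 3.04, 1.51, 1.89 and 2.57 in mice 1 to 4, in Olfr281 at 2.27, 0.525, 2.01 and 2.30, and in Olfr1228 at 1.14, 1.92, 3.34 and 1.11. Each of these values exceeds the level of mOSN as a whole (0.284 to 0.368), dorsal neurons included. The 3 populations were chosen by the same UMIs, so high values follow from the choice. Olfr1025-ps1, Olfr1030 and Olfr1112 were at 0 for Nfia. Olfr1112, with 20 neurons, had 0 UMIs of Nfia in all 4 mice, which allows up to 0.314, beside 1.36 for Nfib and 6.08 for Nfix.

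Among the 10 largest populations, Nfia ranged from 0.0363 in Olfr1297 (56 neurons) to 1.00 in Olfr728 (83 neurons), while Nfix of the 8 with Nqo1 under 1 was at 5.04 to 6.63. In Olfr239, with 71 neurons, Nfia was at 0, 0, 0.152 and 0 UMIs per 10000 in mice 1 to 4, whereas Nfib was at 0.970, 0.942, 0.834 and 1.16 and Nfix at 4.85, 5.79, 5.01 and 4.42. The other two, Olfr1361 and Olfr1176, had Nqo1 at 31.2 and 44.3 and Nfia, Nfib and Nfix at 0.264 or less.

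With the 4 mice summed, Nfic was under 1 UMI per 10000 in all 134 populations, from 0 in Olfr279 to 0.982 in Olfr972, 0.959 in Olfr609 and 0.916 in Olfr11, with quartiles of 0.302 and 0.541. The other lowest were Olfr17 (0.0761) and Olfr732 (0.0834). Its highest values rest on 9 or 10 UMIs each, and by the mean over mice Olfr330 was the highest (1.25), followed by Olfr609 (1.19) and Olfr972 (1.05).

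**Figure D4:**
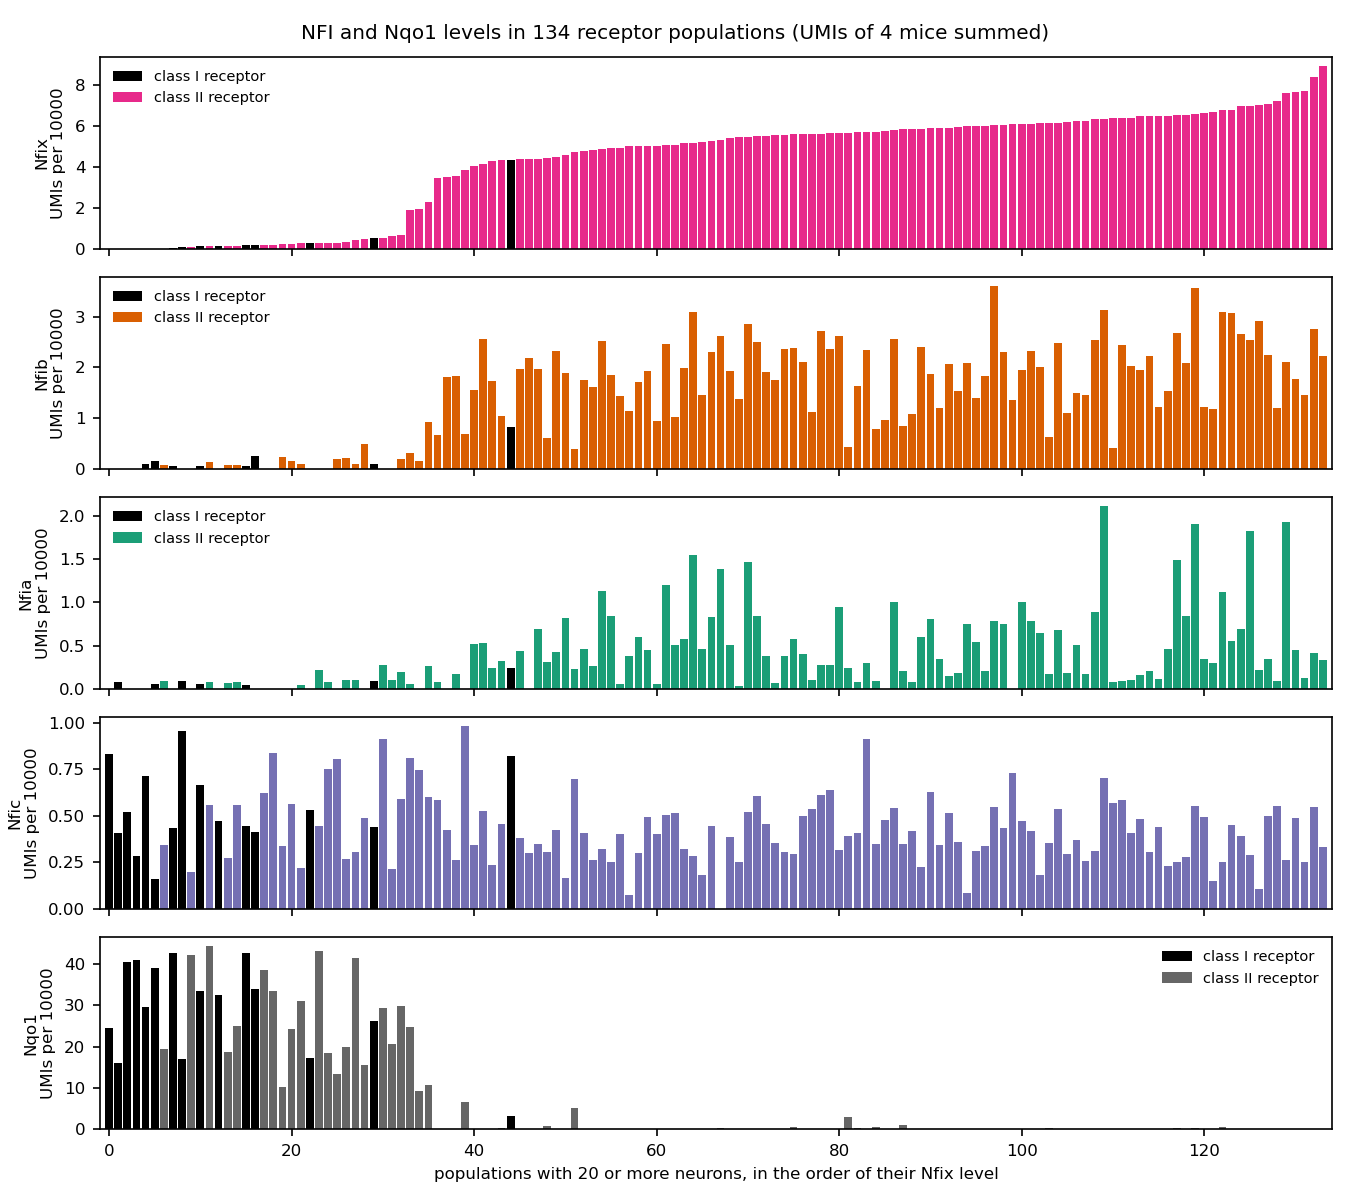
Level of Nfix, Nfib, Nfia, Nfic and Nqo1 (vertical axes, UMIs per 10000 UMIs, 4 mice summed) in the 134 populations with 20 or more neurons, ordered by Nfix; black bars are class I receptors. Nfix has 33 populations under 1 and 98 at 3 or more, Nqo1 is high where Nfix is low, and Nfia varies from 0 to 2.11 at high Nfix.

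The differences among populations were tested over the 98 populations with 3 or more neurons in every mouse, with 1 sum per population and mouse and the mouse as block. The receptor identity uses receptor UMIs only. Nfix (F = 19.9, edgeR adjusted p 9.13e-97), Nfib (F = 11.2, edgeR adjusted p 2.48e-63) and Nfia (F = 5.48, edgeR adjusted p 5.44e-31) differed among populations. In this test 47.8% of 1979 genes were called, so a call is common, and the filter on low counts kept genes of higher level. Nfic did not pass it, and with no filter its F was 0.92 (edgeR p 0.711 unadjusted).

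Among the 87 class II populations alone, where 46.7% of 1935 genes were called, Nfix (F = 12.1, edgeR adjusted p 8.57e-62), Nfib (F = 8.61, edgeR adjusted p 1.84e-45) and Nfia (F = 5.05, edgeR adjusted p 1.87e-25) differed too. Only 71 of these 87 had Nqo1 under 1, so the dorsal to ventral split was still part of this comparison. A difference among the 71 alone was not tested. Over them, Pearson's r between mice had a median of 0.03 for Nfix, 0.31 for Nfib and 0.37 for Nfia (below). Among the 11 class I populations 12.5% of 1101 genes were called, and no member passed the filter. With no filter, where 170 of 9379 genes were called, Nfix had F = 15.1 (edgeR adjusted p 1.41e-24) and Nfib F = 2.90 (edgeR adjusted p 0.0634). Such p-values ran far smaller than with the filter, so their size is not to be relied on. For Nfia among all populations the unadjusted edgeR p was 1.33e-78 (F = 6.47) with no filter and 3.74e-32 (F = 5.48) with it. In class I, Nfix was at 4.36 in Olfr686 and at 0.532 or less in each of the other 14 populations.

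The zone genes Nqo1, Acsm4, Robo2, Nrp2, Ncam2 and Plxna1 were called among populations, as 6 of 6 tested. Among the regulators of receptor choice, 5 of 8 tested were called, where 47.8% of all genes were, Ebf1 with the highest F (5.77), then Emx2 (3.04), Atf5 (2.85), Lhx2 (1.95) and Ebf4 (1.56).

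To see what varied apart from the dorsal to ventral split, the 93 populations with Nqo1 under 1 UMI per 10000, all of class II, were looked at alone. Nfix was at 3.44 to 8.93 in them, with quartiles of 5.07 and 6.37. Nfib had quartiles of 1.46 and 2.41 and Nfia of 0.178 and 0.754, so the quartiles of Nfia lay further apart in proportion than those of Nfix. Nfia had few UMIs per population, which widens such a spread, and the part of counting error in it was not tested. Nfic, at a like level, had quartiles of 0.296 and 0.498. Over these populations Spearman's rho of Nfia with Nfib was 0.63, of Nfix with Nfib 0.19 and of Nfix with Nfia 0.07 (n = 93 populations that share libraries). Within mice, over 71 of them, Pearson's r of log2(level + 0.1) was 0.26 to 0.46 for Nfia with Nfib. It was 0.08 to 0.19 for Nfix with Nfib and 0.10 to 0.34 for Nfix with Nfia. The order by Nfix did not repeat between mice (below), so a low rho with it cannot be read as no relation. With Omp, the rho of the pooled levels was 0.46 for Nfib, 0.43 for Nfix and 0.19 for Nfia. Within mice the r with Omp ran from −0.13 to 0.39 for Nfib. It ran from 0.13 to 0.18 for Nfix and from −0.06 to 0.12 for Nfia.

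The order of the populations could be compared between mice. Over the 71 of these populations with 3 or more neurons in every mouse, Pearson's r of log2(level + 0.1) between 2 mice had a median of 0.37 for Nfia and 0.31 for Nfib (6 pairs of mice), with the lowest pair at 0.24 and 0.14. For Nfix it was 0.03, from −0.10 to 0.16, and for Nfic −0.02. Over all 98 populations, where the dorsal ones are included, it was 0.89 for Nfix and 0.79 for Nfib.

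**Figure D5:**
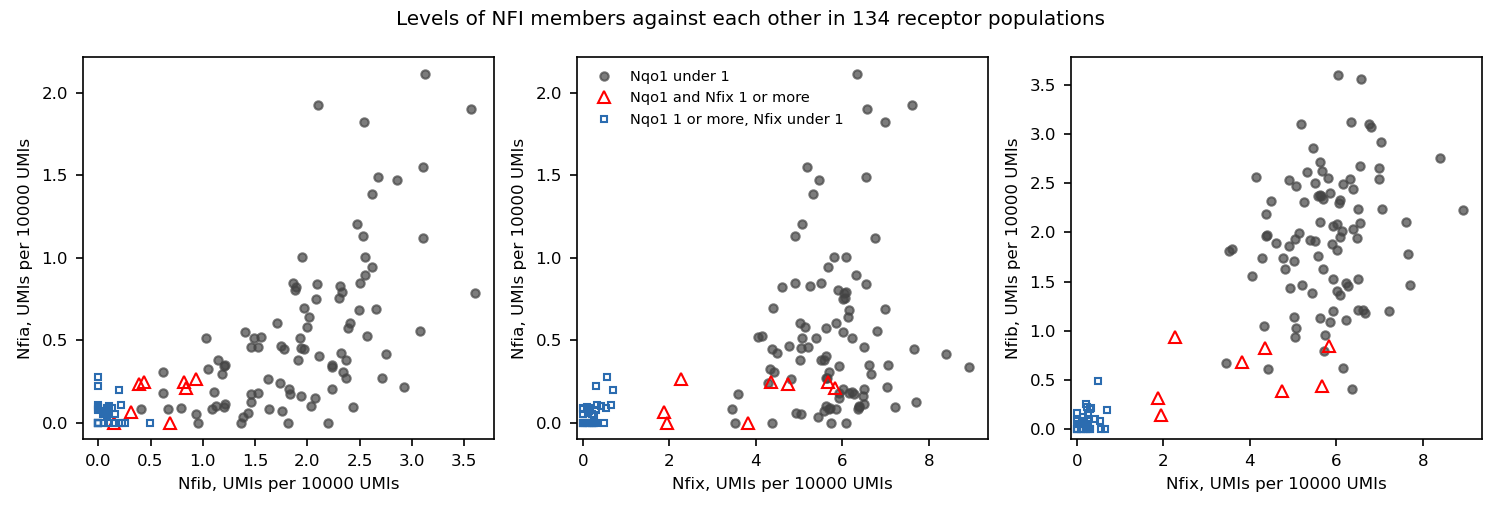
Levels of the NFI members against each other in 134 populations (both axes in UMIs per 10000 UMIs, 4 mice summed); filled circles have Nqo1 under 1, red triangles both Nqo1 and Nfix at 1 or more, blue squares Nqo1 at 1 or more with Nfix under 1. Over the circles, rho is 0.63 for Nfia with Nfib and 0.07 for Nfia with Nfix. The order by Nfix did not repeat between mice (median r 0.03 over 71 populations), so the lower rho cannot be read as no relation.

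Position of the receptor gene gave 5 receptor gene clusters with 5 or more of these class II populations. Nfia had a median of 0.767 UMIs per 10000 over 10 populations of chromosome 14 (49894258 to 52495749) and 0.516 over 22 of chromosome 2 (85818479 to 90271032). It had a median of 0.273 over 6 of chromosome 10 (129248412 to 130214403), 0.216 over 5 of chromosome 17 (37657600 to 38088693) and 0.182 over 8 of chromosome 19 (11886565 to 13750479). The medians of Nfib in the same order were 2.28, 2.09, 1.80, 1.71 and 1.49, and those of Nfix 5.91, 5.82, 4.41, 5.71 and 5.97. Within the chromosome 2 cluster Nfia ranged from 0 to 2.11, so populations of 1 cluster spanned the whole range.

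A small set of 8 populations had both Nqo1 and Nfix at 1 UMI per 10000 or more (chosen after the values were seen). Of these, 3 lay in the gap of Nfix, Olfr24 (1.88), Olfr30 (1.94) and Olfr839-ps1 (2.27), and 5 had Nfix in or near the ventral range, Olfr972, Olfr686, Olfr794, Olfr523 and Olfr1490 (3.83 to 5.83). In Olfr24 neurons Nfix was at 1.63, 2.52, 2.13 and 1.02 in mice 1 to 4 and Nqo1 at 30.9, 24.9, 27.6 and 16.8. In Olfr523 neurons Nfix was at 5.50, 5.80, 5.83 and 5.62 and Nqo1 at 0.550, 5.47, 1.52 and 4.68. Every mouse thus had both transcripts in both populations. In Olfr1490, by contrast, all Nqo1 UMIs came from mouse 3 and 1 neuron.

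UMIs of the 2 genes were also counted in single neurons of these populations. Of 34 Olfr24 neurons, 18 had UMIs of Nqo1 and none of Nfix, 4 had Nfix only, and 11 (32.4%) had both. Both were found in 29.6% of Olfr794, 28.6% of Olfr30, 22.7% of Olfr972, 17.9% of Olfr839-ps1, 12.2% of Olfr523, 11.1% of Olfr686 and 4.0% of Olfr1490 neurons, the last of which had no neuron with Nqo1 only. In the other populations with Nqo1 at 1 or more 6.75% of 934 neurons had both, and in those with Nqo1 under 1 2.08% of 2977. The 8 populations were chosen by the levels of both genes in the same neurons, so a higher share follows from the choice. The authors had given no identity to mOSN with more than 1 receptor over their cutoff, no doublet caller was run beyond that, and the part of droplets with more than 1 cell was not tested. The authors' clusters placed 13 Olfr24 neurons in ventral and 21 in dorsal clusters. Olfr839-ps1 had 9 neurons with Nqo1 only, 10 with Nfix only, 5 with both and 4 with neither.

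In these 8 populations Nfib ranged from 0.149 in Olfr30 to 0.934 in Olfr839-ps1. It was at 0.313 in Olfr24 and 0.687 in Olfr972, and at 0.388 in Olfr794 (Nfix 4.73), 0.440 in Olfr523 (Nfix 5.67) and 0.843 in Olfr1490 (Nfix 5.83). Among the 93 populations with Nqo1 under 1 the lower quartile of Nfib was 1.46 and 7 were under 1. Olfr523 neurons had Nfib at 0.687, 0.331, 0.253 and 0.312 in mice 1 to 4. Olfr686, the 1 class I population with high Nfix, had Nfib at 1.35, 0.692, 0.596 and 0.668, Nfix at 4.38, 5.99, 2.09 and 4.68, and Nqo1 at 0, 4.38, 5.66 and 0. Nfia was at 0.267 or less in all 8.

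Detection in single neurons was described at 5000 UMIs per neuron, to which 1525 neurons of populations with Nfix at 3 or more and 398 of those with Nfix under 1 could be thinned, leaving out 1594 and 536 shallower ones. Nfix had 1 or more UMIs in 91.7% ± 1.2 of the first and 8.63% ± 0.76 of the second (SD, n = 4; 87.8% and 7.38% with all UMIs, median depth 4947 and 4660). Nfib was detected in 57.5% ± 1.9 and 3.01% ± 2.39, and Nfia in 21.3% ± 2.2 and 2.13% ± 1.59. Nfic was detected in 17.6% ± 2.7 and 21.04% ± 2.32. The shares of Nfix follow from the choice of populations by its level in the same neurons. For Nfib and Nfia the shares of the first kind lay above those of the second in every mouse.

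Among precursors, Nfia was found at the same depth in 61.3% ± 5.7 of INP (67.7% with all UMIs, median depth 7546). In GBC it was found in 47.8% ± 13.3. The ranges over mice overlapped, at 53.3% to 66.0% in INP and 35.3% to 66.7% in GBC. The share of cells with Nfia thus did not set INP apart from GBC as its level did. Nfib was found in 71.7% ± 7.0 of INP.

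Genes with a pattern over populations like that of a member were ranked by Pearson's r of log2(level + 0.1) over the 134 populations, receptor genes left out, among 3501 or 3502 genes. For Nfix the highest were Ncam2 (r = 0.92, 0.75 to 0.85 within mice over 98 populations), Nfib (0.91), Sytl1 (0.83), the glycine decarboxylase Gldc (0.82) and the peroxiredoxin Prdx1 (0.77). The lowest were Acsm4 (−0.93), Nqo1 (−0.91), the pyrophosphatase Ppa1 (−0.84), 2810001G20Rik (−0.80) and the acetyl-CoA synthetase Acss2 (−0.79). The populations fall into separate ranges of Nfix, so these r largely set the ranges against each other.

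For Nfib the highest were Nfix, Ncam2 (0.87), Pdlim1 (0.84), Sytl1 (0.84) and Ifi27 (0.82), and the lowest Acsm4 (−0.93), Nqo1 (−0.92), Ppa1 (−0.86), 2810001G20Rik (−0.80) and the small GTPase Rnd2 (−0.75). For Nfia, neither another NFI gene nor a dorsal marker led the list, although its r was 0.70 with Nfib and −0.60 with Nqo1. Its highest were Ifi27 (r = 0.76, 0.43 to 0.59 within mice), Pdlim1 (0.74), Septin3 (0.72), the peroxiredoxin Prdx2 (0.72) and Cidea (0.71), a lipid droplet protein. Cidea had a median of 0.201 and a maximum of 8.36 UMIs per 10000. Its lowest were the neuropeptide precursor Cartpt (−0.75, −0.61 to −0.54 within mice), Ppa1 (−0.72), the cell cycle inhibitor Cdkn1a (−0.69), Robo2 (−0.66) and Nsg2 (−0.66).

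For Nfic no gene went beyond 0.34 in size upward (Rc3h2 0.33, Slc27a2 0.33, Ankrd12 0.32, Peg3 0.30 and Fstl5 0.30) or −0.38 downward (Glul −0.37, Mrpl17 −0.37, Snrpb2 −0.32, Dhrs3 −0.32 and Hmgn3 −0.31). Within mice Rc3h2 was at −0.12 to 0.18. Weak values of this size in sparse counts are no finding.

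Some mOSN expressed a receptor of another family or had no receptor identity. The 44 mOSN with a trace amine receptor (Taar genes) had 30 UMIs of Nfix, 11 of Nfic, 5 of Nfib and 3 of Nfia, and Nfix was at 0.646, 2.32, 0.560 and 2.55 UMIs per 10000 in mice 1 to 4. The 728 mOSN with no receptor identity had 3.77 ± 0.67 for Nfix and 0.315 ± 0.048 for Nfia (SD, n = 4), against 3.92 ± 0.48 and 0.333 ± 0.034 in neurons with one.

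Since NFI factors bind DNA, start site windows from RefSeq (250 bases before to 50 after a gene's start, GRCm38.p6) were searched on both strands for the palindrome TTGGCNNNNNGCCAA and its half-site TTGGC, of which the palindrome holds 2. Windows were found for 76 of the 98 receptors of populations with Nfix at 3 or more, for 24 of the 33 with Nfix under 1, and for Nfia, Nfix and Nfic. The half-site was in 34.2% of the 76, in 29.2% of the 24, in 31.9% of 944 Olfr genes and in 50.4% of all 27025 genes. A gene counted if any of its windows held the half-site. The Olfr genes had 948 windows and all genes 32851, so more sequence per gene was searched in the latter. The palindrome was in 0 of the 944 Olfr genes and in 12 genes of all. The shares of both kinds of receptor lay on either side of that of all Olfr genes. Of 4 windows of Nfix 3 held a half-site, and the 1 window each of Nfia and Nfic held 0. Shown are the Nfix window with 2 half-sites, on opposite strands, and the receptors with a half-site from the populations of the lowest and the highest Nfix (Olfr661, with 0 UMIs of Nfix in 30 neurons, and Olfr820, with 7.66), half-sites on either strand in capitals, 5′ to 3′ along the gene's strand.
Nfix, chr8:84772826-84773125, minus strand: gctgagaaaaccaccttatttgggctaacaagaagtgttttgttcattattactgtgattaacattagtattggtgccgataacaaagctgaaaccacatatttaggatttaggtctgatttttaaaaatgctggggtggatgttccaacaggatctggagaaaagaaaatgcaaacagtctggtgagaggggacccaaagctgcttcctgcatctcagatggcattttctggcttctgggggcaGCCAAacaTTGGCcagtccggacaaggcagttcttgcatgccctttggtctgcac
Olfr661, chr7:104687767-104688066, plus strand: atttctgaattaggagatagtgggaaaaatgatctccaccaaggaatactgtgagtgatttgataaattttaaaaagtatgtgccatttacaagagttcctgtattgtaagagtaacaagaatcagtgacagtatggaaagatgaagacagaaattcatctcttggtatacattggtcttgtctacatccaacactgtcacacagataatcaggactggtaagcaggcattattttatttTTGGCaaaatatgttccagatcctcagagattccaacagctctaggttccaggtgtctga
Olfr820, chr10:130017113-130017412, plus strand: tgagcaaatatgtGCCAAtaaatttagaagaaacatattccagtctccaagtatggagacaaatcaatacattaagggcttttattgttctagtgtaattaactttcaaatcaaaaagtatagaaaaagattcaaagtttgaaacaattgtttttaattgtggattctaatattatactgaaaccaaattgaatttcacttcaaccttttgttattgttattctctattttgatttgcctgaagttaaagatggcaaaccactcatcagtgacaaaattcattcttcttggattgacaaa
A match to these letters is a description of the window and not a bound site.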

How the data were processed

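Cells of the main olfactory epithelium of 4 mice were profiled with 1 library each. Per the submitters' processing notes, reads were processed in Cell Ranger 6.0.1 against GRCm38 with an annotation in which 3′ ends of receptor genes had been redrawn, and the authors deposited raw UMI counts per gene and barcode, not normalised. The deposited cell table gives the types, clusters and receptor identities, made in Seurat, and these were used as given. For the members, a merged table of counts was equal to the matrices in 21809 of 21809 barcodes.

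Levels are UMIs per 10000 UMIs of the summed cells of a mouse. Tests used UMI sums in edgeR 4.0.16 (R 4.3.3, TMM, filterByExpr, quasi-likelihood, Benjamini-Hochberg at 0.05) over all genes but 1430 receptor genes. The SE of an edgeR log2 change was taken as its size over the square root of F, which can lie below counting error. The mouse was a block because both sums come from 1 animal and library. The deviations of the 2 sums of a mouse correlated at 0.138 to 0.337 in mOSN and at 0.00270 to 0.0631 in the immature stages, over genes. DESeq2 1.42.0, other filters, thinning to 5000 UMIs and leaving out each mouse or the 5% deepest cells (possible doublets) were alternatives. The authors gave no identity to mOSN with more than 1 receptor over their cutoff, and no doublet caller was run here. Floors of 3 counts cover counting error only.

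The members, lists and rules were chosen with earlier results of these data known. Named populations are the 3 highest and 3 lowest of each member (for ties at 0, in alphabetical order) and the 10 largest, ranked with the 4 mice summed. Those with both Nqo1 and Nfix at 1 or more, those shown by sequence and those ranked by the mean over mice were added after their values were seen. Named genes are the lists and the 5 highest and 5 lowest by likeness, with 3 across types. Protein sequences were not used here.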

Additional observations from a re-analysis of the deposited data

Results flagged for a closer look

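In 104 groups of 4 mice, the highest or lowest level of a member was compared with the rest, and 6 stood apart by more than Dixon's 95% critical ratio, where chance flags about 5% of groups. In GBC, mouse 3 was at 2.45 UMIs per 10000 for Nfia against 1.51 to 1.61 in the other mice, and at 1.43 for Nfix against 0.886 to 0.953. In INP, mouse 2 was at 3.44 for Nfia against 4.86 to 5.12. For Nfic, mouse 4 was at 1.54 in HBC2 against 1.18 to 1.24, mouse 3 at 0.536 in the Cd36+ ventral cluster against 0.381 to 0.404, and mouse 1 at 0.417 in the main dorsal cluster against 0.532 to 0.548.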

How the results depend on the processing

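Between the classes in mOSN, 2201 genes were called with the mouse as block, 1080 with no replicate block, 964 with DESeq2, 989 after thinning and 1583 to 1826 without 1 mouse. In iOSN2 the 124 calls became 76 with DESeq2, 193 with no filter, 81 after thinning and 45 to 129 without 1 mouse (45 without mouse 1). In iOSN1 the 126 became 42 with DESeq2, 59 after thinning, 194 without the deepest cells, 77 with 5 or more receptor UMIs and 38 to 154 without 1 mouse (38 without mouse 3, 65 without mouse 1). The interaction had 52 calls, 15 with no replicate block and 28 to 62 without 1 mouse (28 without mouse 1). Among populations, no filter gave 1953 in place of 945 calls (class II 2076 in place of 904), with 13845 genes tested in place of 1979 (class II 13630 in place of 1935). With 5 or more neurons per mouse, 41 in place of 138 genes were called in class I. The causes were not tested.

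Of the members' own results, Nfia in iOSN1 was not called with DESeq2 (−3.29, adjusted p 0.353) and Nfia in iOSN2 was called with no filter (−1.93, adjusted p 0.0140). Unadjusted p-values of Nfia, Nfib and Nfix were smaller with no filter than with it in every test made with both. Nfia in iOSN1 was −2.02 to −4.18 and Nfib in iOSN2 −2.85 to −4.84 without 1 mouse, and Nfib in iOSN1 −3.29 without the deepest cells, all called. The Nfix interaction was 0.96 to 1.95 without 1 mouse and was called without mouse 2 (1.95), and that of Nfib was −0.72 to 1.01, negative without mouse 3 (−0.72, not called in either). That of Nfia was 0.37 to 1.48, not called. The replicate block changed no call of a member. After thinning, the level of Nfic in INP was 0.0189 in place of 0.0679.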
